A study of Homo sapiens with 30 samples.

Results

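The classic androgen-induced genes are a set of 37 genes that includes FKBP5, PMEPA1, TSC22D3 and widely used markers of androgen response other than the kallikreins. They were chosen by name, as the rows whose gene symbol equals a listed symbol in each of 4 RNA-seq count tables, and all 37 were found in each table among 57773 genes. The tables cover 3 human prostate cancer cell lines. C4-2-tet-shRB cells, a castration-resistant derivative of LNCaP with a doxycycline-inducible hairpin against the retinoblastoma gene RB1, were given 10 nM dihydrotestosterone (DHT) for 24 h, or vehicle, after 0, 3 or 30 days of doxycycline at 0.05 µg/ml (1 library per group). In a second experiment, C4-2-tet-shRB cells were given doxycycline for 3 days and then 10 µM GSK2879552 for 24 h, a compound that blocks LSD1, which removes methyl groups from histones. The other groups of that experiment received the inhibitor alone, doxycycline alone or DMSO (2 libraries per group). VCaP cells, an androgen-responsive line from a prostate cancer metastasis, were transfected for 2 days with 20 nM siRNA against RB1 or a non-targeting siRNA (3 libraries each). LNCaP cells were given 1 µM GSK2879552 for 2 days, or vehicle (1 library each).

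DHT cells were kept in RPMI medium containing 8% charcoal-stripped serum and 2% regular serum, and the cells of both inhibitor experiments in 5% charcoal-stripped serum. The VCaP labels give DMEM and 10% FBS, whereas the names of those libraries mention charcoal-stripped serum, so the serum of this experiment is uncertain. Cells cultured with doxycycline were compared with cells without it, so effects of the drug and of the RB1 hairpin cannot be told apart. A control hairpin was not analysed here, and the labels do not state whether replicates were separate cultures, so a p-value reflects the spread among the libraries alone. Counted reads per library ranged from 14898454 to 16856486 in the DHT experiment, 14515932 to 22326960 in the C4-2 inhibitor experiment and 13085157 to 14036346 in LNCaP. In VCaP they ranged from 4311455 to 4551211 with the control siRNA and from 6218938 to 7107036 with RB1 siRNA. Depth and siRNA therefore cannot be told apart in VCaP. The luminal prostate markers KRT8, KRT18, FOXA1 and HOXB13 all exceeded 1 CPM, a count scaled to the library's effective size, in all 4 tables. The 10 measured markers of basal, stromal, leukocyte and neuroendocrine cells summed to 23.3 to 81.8 CPM in C4-2 and LNCaP libraries, with KRT5 at 0 throughout, and to 226 to 252 CPM in VCaP, where CHGA led.

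Androgens such as DHT bind a nuclear hormone receptor, which then enters the nucleus, settles on androgen response elements and recruits coactivators to the enhancers of its target genes. In the prostate epithelium these targets encode secreted enzymes, transporters, metabolic enzymes and regulators of growth. Several of them, FKBP5, SGK1, TSC22D3 and ZBTB16 among them, also respond to glucocorticoids, because the glucocorticoid receptor recognises nearly the same element.

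RefSeq promoter windows, spanning 250 bases before to 50 bases after the annotated start (build GRCh38.p14), were available for 28 of the 37 genes, 1 of them (ACPP) under its present symbol ACP3. ELL2, SORD, ST6GALNAC1, TPD52, ZBTB10, ZBTB16, GREB1, LONRF1 and ADAMTS1 had no entry. Windows are printed for FKBP5 (chr6:35728534-35728833, minus strand), PMEPA1 (chr20:57711423-57711722, minus strand) and SGK1 (chr6:134318063-134318362, minus strand), whose RNA was 4.13-fold to 30.8-fold higher with DHT, and for TSC22D3 (chrX:107775939-107776238, minus strand), the member whose RNA was lower. Capitals mark the half-site of the androgen response element, AGAACA on the printed strand or TGTTCT for the other strand.
FKBP5 promoter: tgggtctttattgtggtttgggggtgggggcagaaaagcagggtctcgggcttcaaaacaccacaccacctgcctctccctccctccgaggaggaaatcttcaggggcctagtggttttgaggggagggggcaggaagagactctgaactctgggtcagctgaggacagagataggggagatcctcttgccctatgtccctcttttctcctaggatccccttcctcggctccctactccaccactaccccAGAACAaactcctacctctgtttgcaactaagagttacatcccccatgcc
PMEPA1 promoter: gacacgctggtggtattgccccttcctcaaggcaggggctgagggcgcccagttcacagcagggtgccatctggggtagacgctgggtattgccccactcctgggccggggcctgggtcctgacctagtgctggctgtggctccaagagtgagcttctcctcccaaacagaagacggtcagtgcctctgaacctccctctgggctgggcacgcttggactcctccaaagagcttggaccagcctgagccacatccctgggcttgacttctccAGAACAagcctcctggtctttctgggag
SGK1 promoter: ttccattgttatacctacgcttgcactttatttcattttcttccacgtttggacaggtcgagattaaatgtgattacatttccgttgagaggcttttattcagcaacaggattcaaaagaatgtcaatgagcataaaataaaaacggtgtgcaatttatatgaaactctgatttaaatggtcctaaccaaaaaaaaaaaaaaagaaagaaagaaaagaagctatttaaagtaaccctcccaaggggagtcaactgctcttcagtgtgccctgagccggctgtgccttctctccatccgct
TSC22D3 promoter: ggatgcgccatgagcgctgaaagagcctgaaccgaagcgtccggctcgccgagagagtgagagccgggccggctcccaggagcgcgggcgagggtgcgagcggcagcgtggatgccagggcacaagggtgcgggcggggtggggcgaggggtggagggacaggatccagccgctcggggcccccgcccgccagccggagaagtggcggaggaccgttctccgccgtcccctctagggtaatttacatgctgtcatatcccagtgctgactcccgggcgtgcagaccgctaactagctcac
A half-site was found in the windows of FKBP5, PMEPA1 and STK39, which is 3 of 28 (10.7%), against 14.8% of 35116 promoters of the same length. None of the 28 windows held the 15-letter palindromic element, a pair of half-sites separated by any 3 bases, which 0.00285% of all promoters held. The SGK1 and TSC22D3 windows held no half-site. Each member was represented by the first window listed for it, and any other starts of the gene were not searched. Median GC content was 67.65% in the members' windows and 58.7% in all promoters.

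The DHT experiment asked how the response to androgen depends on RB1. RB1 itself stood at 51.1, 10.0 and 6.25 CPM in the DHT libraries after 0, 3 and 30 days of doxycycline, and at 48.1, 7.82 and 6.27 CPM in the vehicle libraries. It was lower with doxycycline by a log2 fold change of -2.49 ± 0.11 after 3 days and -2.98 ± 0.11 after 30 days. Each change is given on the log2 scale with an SE. The SE is the size of the change divided by the square root of its F statistic. That F statistic is from the quasi-likelihood F test of edgeR. A gene was called where its p, adjusted by Benjamini-Hochberg over all genes tested, was under 0.05. DHT raised 36 of the 37 genes and lowered 1, TSC22D3, in a fit of all 6 libraries. With 1 library per group, this fit had 2 residual degrees of freedom. Its p-values rest largely on a spread shared across genes (24.4 prior degrees of freedom), not on replicates. The background was 24.3% of 17300 tested genes called up and 22.8% called down. The members, and the other gene lists given below, were chosen with earlier results of these data known. Counts of their calls are therefore not an independent test. The members' median was 1.65, against -0.02 over all tested genes, and 30 members rose at least 2-fold and 13 at least 4-fold. In RNA from whole cultures, fewer cells of a type and less RNA per cell cannot be told apart. In all 37 genes, the 3 DHT and the 3 vehicle libraries did not overlap. Among all tested genes, 26.2% were higher without overlap and 25.8% lower. Each of the 37 calls was also made by DESeq2, under every other setting tried and without any 1 of the 6 libraries.

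**Figure D1:**
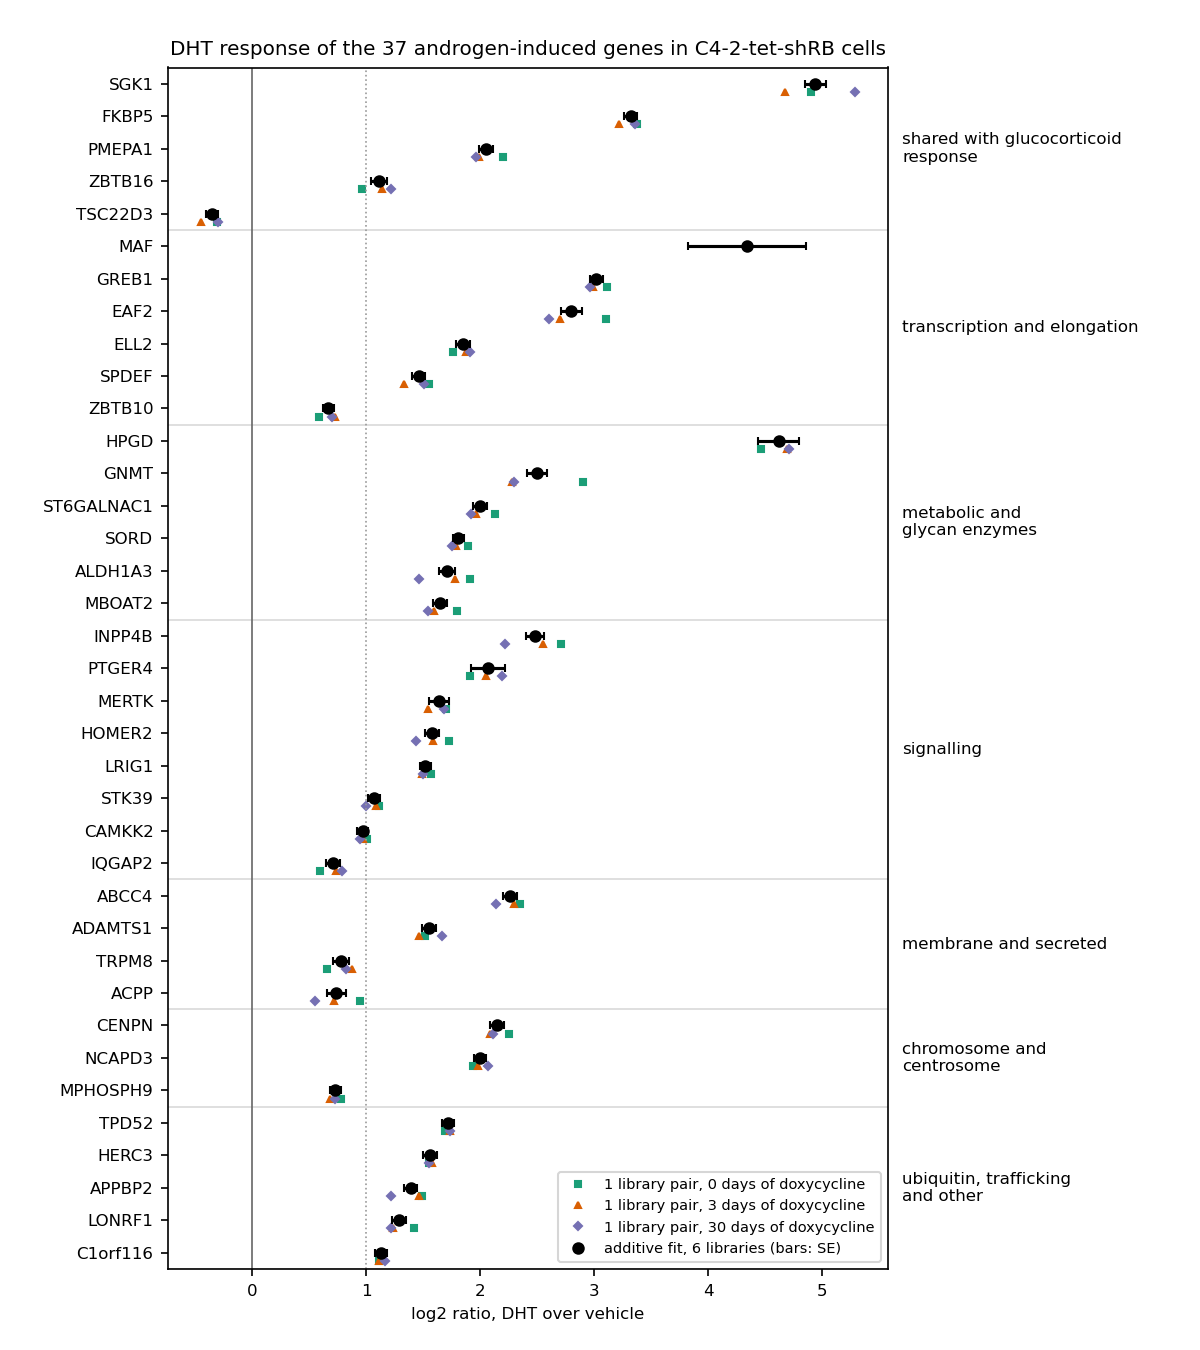
DHT response of each gene in C4-2-tet-shRB cells as a log2 ratio of DHT over vehicle, by functional group. Black points are the fit over 6 libraries with the SE as bars, coloured points are single library pairs at each doxycycline time (left out for MAF, with too few counts), the solid line marks no change and the dotted line a doubling. SGK1, HPGD, MAF, FKBP5 and GREB1 lie beyond 3 and TSC22D3 alone lies below 0. PMEPA1 is drawn with the genes shared with the glucocorticoid response.

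FKBP5, SGK1, TSC22D3 and ZBTB16, which also respond to glucocorticoids, were grouped with PMEPA1, and 4 of these 5 rose. SGK1 (ENSG00000118515), a kinase that controls ion transport and survival signalling, reached 107, 115 and 134 CPM in DHT libraries after 0, 3 and 30 days of doxycycline, against 3.57, 4.52 and 3.42 CPM in vehicle libraries. Its rise of 4.94 ± 0.09 (adjusted p = 9.92e-25 in edgeR) was the largest of the set. FKBP5 (ENSG00000096060), an HSP90 co-chaperone of steroid receptors, stood at 838, 821 and 848 CPM with DHT and at 80.3, 88.1 and 82.6 CPM with vehicle. The 3 levels within each treatment lay close together, and the rise was 3.32 ± 0.06 (adjusted p = 3.49e-25 in edgeR). PMEPA1 (ENSG00000124225), a membrane adaptor that binds NEDD4-type ubiquitin ligases and restrains TGF-beta signalling, stood at 318, 294 and 350 CPM with DHT and at 69.2, 74.2 and 90.1 CPM with vehicle. It was highest after 30 days of doxycycline under both treatments, and rose by 2.05 ± 0.06 with DHT (adjusted p = 6.61e-21 in edgeR). ZBTB16, the zinc finger repressor PLZF, rose by 1.11 ± 0.07.

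TSC22D3 (ENSG00000157514), the glucocorticoid-induced leucine zipper GILZ, went the other way. It stood at 185, 158 and 167 CPM with DHT, against 228, 216 and 206 CPM with vehicle. Every DHT library was below every vehicle library, and the fall was -0.35 ± 0.05 (adjusted p = 3.78e-06 in edgeR). In these cells the data thus go against the label of an androgen-induced gene for TSC22D3. The glucocorticoid receptor gene NR3C1 had at most 0.125 CPM in these 6 libraries. Of 7 other glucocorticoid-responsive genes measured, 5 rose and 1 fell, and the median was 1.11. The EGFR feedback inhibitor ERRFI1 rose by 1.76 ± 0.07 and the stress-response gene GADD45A fell (log2 -0.64 ± 0.16).

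All 6 genes of transcription and elongation rose. GREB1, a chromatin-bound cofactor of steroid receptors, stood at 168, 161 and 172 CPM with DHT and at 19.5, 20.3 and 22.0 CPM with vehicle, a rise of 3.02 ± 0.06 (adjusted p = 1.33e-23 in edgeR). EAF2 and ELL2, partners in the elongation of transcripts by RNA polymerase II, rose by 2.80 ± 0.09 and 1.85 ± 0.06. The prostate ETS factor SPDEF rose by 1.46 ± 0.06 and the zinc finger gene ZBTB10 by 0.67 ± 0.05. MAF, a leucine zipper transcription factor, was nearly silent with vehicle, with 2, 1 and 1 counts, and had 20, 17 and 37 counts with DHT. Its DHT over vehicle ratio was 11.6 (95% interval 2.83 to 103) after 0 days of doxycycline, 21.8 (3.42 to 912) after 3 days and 44.3 (7.47 to 1800) after 30 days. The intervals are exact binomial ones and cover counting error only, and at this depth they do not place the size of the MAF response.

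All 6 metabolic and glycan enzymes rose. HPGD, which inactivates prostaglandins, stood at 12.4, 15.8 and 19.7 CPM with DHT, against 0.563, 0.614 and 0.754 CPM with vehicle. Its vehicle libraries held 9, 11 and 13 counts, and it rose by 4.62 ± 0.18 (adjusted p = 4.31e-18 in edgeR). GNMT, which consumes S-adenosylmethionine to methylate glycine, rose by 2.50 ± 0.09. The sialyltransferase ST6GALNAC1 rose by 2.00 ± 0.06, the sorbitol dehydrogenase SORD by 1.81 ± 0.05, the retinaldehyde dehydrogenase ALDH1A3 by 1.71 ± 0.07 and the phospholipid acyltransferase MBOAT2 by 1.65 ± 0.06.

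The 8 signalling genes all rose, with a median of 1.55. The largest rise was that of the phosphoinositide phosphatase INPP4B (2.48 ± 0.08), followed by the prostaglandin E2 receptor PTGER4 (2.07 ± 0.15). The receptor tyrosine kinase MERTK, the scaffold HOMER2 and the EGFR antagonist LRIG1 rose by 1.52 to 1.64. The kinases STK39 and CAMKK2 rose by 1.07 ± 0.05 and 0.97 ± 0.05, and the scaffold IQGAP2 by 0.71 ± 0.06. Of the 4 membrane and secreted proteins, the efflux pump ABCC4 (2.26 ± 0.06) and the secreted protease ADAMTS1 (1.55 ± 0.06) rose more than the cold-gated channel TRPM8 (0.78 ± 0.07) and ACPP, prostatic acid phosphatase (0.74 ± 0.08).

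The centromere protein CENPN (2.15 ± 0.06) and the condensin II subunit NCAPD3 (2.00 ± 0.05) rose, as did the centrosomal protein MPHOSPH9 (0.73 ± 0.05). These rises stood beside a fall of all 12 proliferation genes measured, with a median of -0.71, led by the helicase subunits MCM2 (log2 -0.86 ± 0.06) and MCM3 (log2 -0.74 ± 0.06). Of 4 markers of other cell types tested, ACTA2 (1.23 ± 0.33), COL1A1 and SYP rose and VIM fell (log2 -0.43 ± 0.10). The part of these genes in the result was not tested. The remaining 5 genes, TPD52 of vesicle traffic, the ubiquitin ligase HERC3, the amyloid precursor-binding APPBP2, LONRF1 and C1orf116, rose by 1.13 to 1.72.

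Beyond the 37 genes, 29 of 32 other androgen-induced genes measured rose and 0 fell, with a median of 1.32. They included KLK3, the gene of prostate-specific antigen, which stood at 8390, 6840 and 6410 CPM with DHT and at 3660, 3510 and 3350 CPM with vehicle (1.03 ± 0.06), and the fatty acid activating enzyme ACSL3 (2.90 ± 0.06). Of 10 androgen-repressed genes 8 fell, among them the chemokine receptor ACKR3 (log2 -3.72 ± 0.10) and the kinase inhibitor CAMK2N1 (log2 -2.80 ± 0.10), while ST6GAL1 (1.37 ± 0.10) and KCNMA1 (0.68 ± 0.06) rose. Among 24 receptors and coregulators 5 rose and 11 fell. The SUMO ligase PIAS1 rose by 1.06 ± 0.07, and the pioneer factor GATA2 fell (log2 -0.70 ± 0.06).

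The response was also described for each doxycycline time from single library pairs, without a test, for the 36 members that had at least 100 counts in the pair (MAF did not). Past 2-fold were 29 members up and 0 down after 0 days, where the background was 3.98% up and 3.83% down. The same counts, 29 and 0, were found after 3 days (background 3.37% up and 1.81% down) and after 30 days (background 3.31% up and 1.83% down). Member medians were 1.72, 1.6 and 1.61 after 0, 3 and 30 days. Scaling by library totals in place of TMM shifted the median of all genes by -0.17 to -0.21 in these ratios, and 26, 26 and 28 members then passed 2-fold. TSC22D3 remained below 0 at all 3 times under each scaling.

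**Figure D2:**
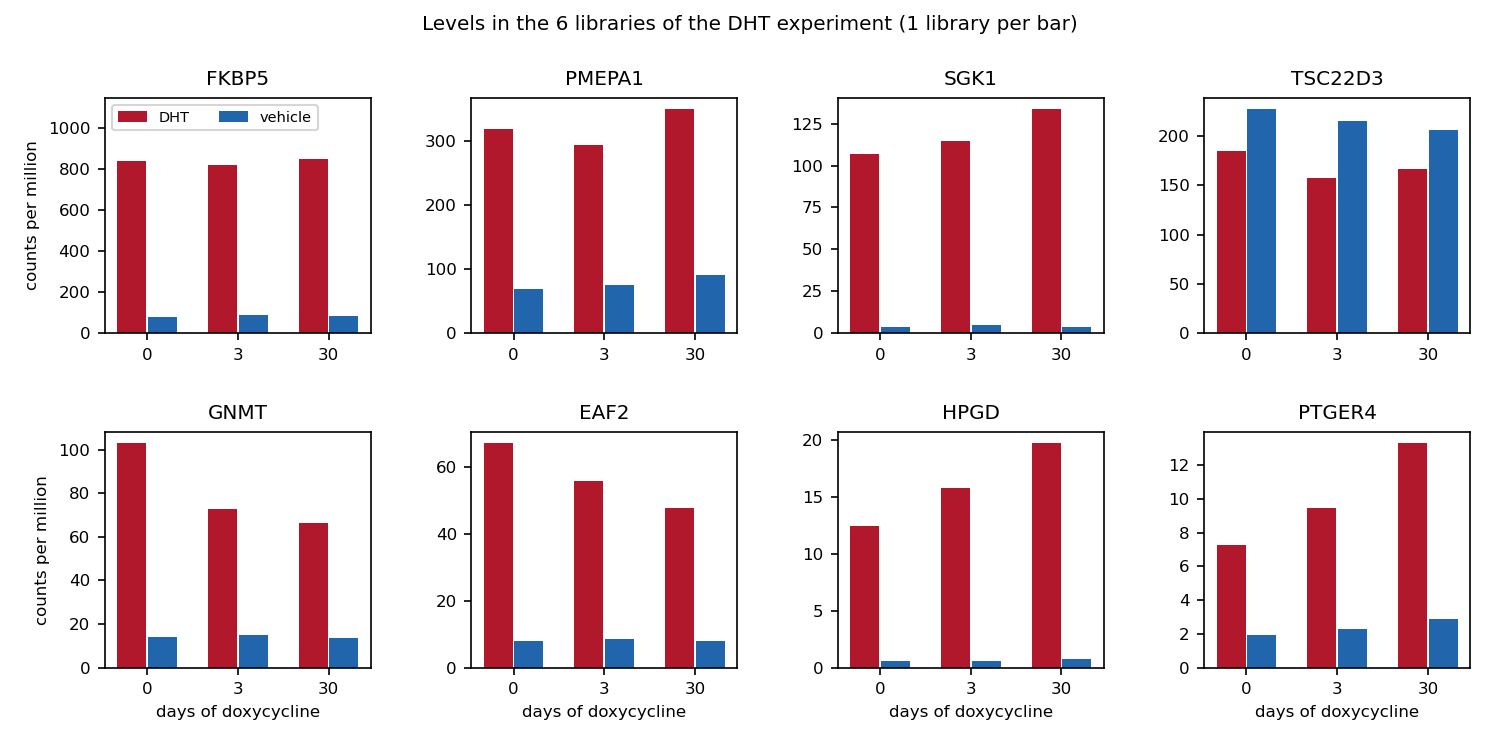
Expression level (CPM) of 8 genes in the DHT experiment, 1 bar per library, with DHT in red and vehicle in blue, by days of doxycycline. FKBP5 held 821 to 848 CPM with DHT at all times, GNMT with DHT fell to 66.3 CPM after 30 days against 103 CPM after 0 days, and TSC22D3 was lower with DHT at every time.

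A test of whether the DHT response itself differed with any doxycycline called 1 of 37 members, against a background of 1.4% of genes called in either direction. GNMT stood at 72.7 and 66.3 CPM in the DHT libraries after 3 and 30 days of doxycycline and at 103 CPM in that without it. Its vehicle libraries held 15 and 13.5 CPM with doxycycline and 13.8 CPM without it, so the DHT library without doxycycline was the high one. The DHT over vehicle ratio was 4.86 (95% interval 4.24 to 5.58) after 3 days and 4.92 (4.26 to 5.71) after 30 days, against 7.48 (6.49 to 8.66) without doxycycline. The difference was -0.61 ± 0.15 (adjusted p = 0.00482 in edgeR), while DESeq2 gave it an adjusted p of 1.0. DESeq2 called 0 members at an adjusted p under 0.05. At an unadjusted p under 0.05 edgeR had 10 members lower and 0 higher, against 4.85% and 5.99% of all genes. Among those 10, the difference was -0.45 ± 0.19 for EAF2 (adjusted p = 0.289) and -0.30 ± 0.10 for ALDH1A3 (adjusted p = 0.127). The 12 proliferation genes moved beside this, with 9 called higher, led by TOP2A (0.70 ± 0.09). This fit had 1 residual degree of freedom and infinite prior degrees of freedom, so its spread came from all genes together. It rests on 1 DHT and 1 vehicle library without doxycycline, and could not be repeated without a library.

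Doxycycline for 3 days, averaged over DHT and vehicle, gave no member a call in edgeR (0 up and 0 down of 37, against 0.272% and 0.197% of all genes). DESeq2 also called 0 at an adjusted p under 0.05. At an unadjusted p under 0.05 in edgeR, 1 member was higher and 5 were lower, against 5.47% and 4.5% of all genes. The lowest adjusted p was that of TRPM8 (log2 -0.34 ± 0.08, adjusted p = 0.0534), which stood at 52.7 CPM after 3 days and 62.3 CPM after 0 days with DHT, and at 28.7 and 39.3 CPM with vehicle. STK39 followed (log2 -0.24 ± 0.06, adjusted p = 0.092). Without the vehicle library of 0 days, 7 members were called lower, and the share of all genes called lower was 2.28%. Beside this, 3 of the 12 proliferation genes rose, led by MCM3 (0.43 ± 0.07).

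After 30 days of doxycycline 5 members rose and 3 fell (background 2.51% and 1.52%), while the member median was -0.01. PTGER4 reached 13.3 CPM with DHT and 2.90 CPM with vehicle, against 7.28 and 1.94 CPM without doxycycline (0.78 ± 0.18, adjusted p = 0.0117 in edgeR). HPGD reached 19.7 and 0.754 CPM, against 12.4 and 0.563 CPM (0.65 ± 0.17, adjusted p = 0.0284 in edgeR). With vehicle both rested on few counts, and the 30-day over 0-day ratio was 1.5 (95% interval 0.937 to 2.42) for PTGER4 and 1.34 (0.53 to 3.55) for HPGD, both including 1. INPP4B stood at 105 CPM with DHT and 22.6 CPM with vehicle, against 94.1 and 14.4 CPM (0.33 ± 0.09, adjusted p = 0.0373 in edgeR). PMEPA1 rose by 0.24 ± 0.07 (adjusted p = 0.0457 in edgeR) and CAMKK2 by 0.23 ± 0.06 (adjusted p = 0.0412 in edgeR), with 350 against 318 CPM and 255 against 222 CPM in the DHT libraries.

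GNMT fell (log2 -0.45 ± 0.11, adjusted p = 0.0117 in edgeR). Its single-pair value was -0.64 with DHT and -0.04 with vehicle. EAF2 fell (log2 -0.37 ± 0.10, adjusted p = 0.0443 in edgeR), with single-pair values of -0.49 with DHT and 0.00 with vehicle. For both genes the change lay in the DHT libraries, with 47.6 CPM of EAF2 after 30 days against 67.1 CPM. TRPM8 stood at 53.4 CPM with DHT and 30.2 CPM with vehicle, against 62.3 and 39.3 CPM, and fell under both treatments (log2 -0.30 ± 0.08, adjusted p = 0.0347 in edgeR), with single-pair values of -0.22 with DHT and -0.38 with vehicle. DESeq2 called 0 of the 37 members, with the 8 genes at adjusted p of 0.299 to 0.999. In edgeR all 8 calls were lost without 1 or more single libraries. CAMKK2 also lost its call without the filter on low counts (adjusted p = 0.0526) and PMEPA1 under RLE scaling (adjusted p = 0.0547). Leaving out the 0-day DHT library ended the calls of GNMT (-0.04), EAF2 (-0.04), HPGD (0.42) and PTGER4 (0.62). Leaving out the 30-day DHT library ended those of CAMKK2 (0.25), PMEPA1 (0.32), TRPM8 (-0.33), GNMT (-0.25), EAF2 (-0.15), HPGD (0.53) and PTGER4 (0.63). Without the 30-day vehicle library, INPP4B (0.19), PMEPA1 (0.19), CAMKK2 (0.21) and TRPM8 (-0.27) lost theirs, and without the 0-day vehicle library INPP4B (0.21), PMEPA1 (0.14) and TRPM8 (-0.21) did. Without the 3-day DHT library PMEPA1 (0.24) and CAMKK2 (0.22) also lost theirs, and without the 3-day vehicle library CAMKK2 (0.23) did.

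In the inhibitor experiment, 3 days of doxycycline without GSK2879552 raised 4 and lowered 2 of the 35 members tested (background 4.25% up and 3.59% down), with a median of 0.06. HPGD and MAF were too low to test, at 0 to 0.205 CPM. RB1 stood at 4.64 and 6.24 CPM with doxycycline, against 23.4 and 26.1 CPM with DMSO (log2 -2.18 ± 0.18). ALDH1A3, the largest rise, stood at 72.7 and 79.4 CPM with doxycycline, against 47.4 and 52.0 CPM with DMSO (0.61 ± 0.08, adjusted p = 0.000187 in edgeR). ADAMTS1 stood at 449 and 447 CPM, against 339 and 364 CPM (0.35 ± 0.06, adjusted p = 0.00161 in edgeR). In neither gene did the groups overlap. Here and in the comparisons below, overlap was looked at in called members only, where a gap between groups largely follows from the call. The share of all genes without overlap was not computed for these comparisons, so the gaps add no separate support.

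FKBP5 stood at 80.5 and 80.8 CPM with doxycycline, against 64.6 and 65.6 CPM with DMSO (0.31 ± 0.07, adjusted p = 0.012 in edgeR), and TSC22D3 at 352 and 352 CPM, against 291 and 291 CPM (0.28 ± 0.06, adjusted p = 0.00767 in edgeR). Both thus rose by about the same amount, and replicates lay close together. ZBTB10 fell to 23.5 and 27.5 CPM, against 32.1 and 37.2 CPM (log2 -0.44 ± 0.11, adjusted p = 0.0246 in edgeR). CAMKK2, which activates AMPK, fell to 309 and 304 CPM, against 400 and 386 CPM (log2 -0.36 ± 0.06, adjusted p = 0.00123 in edgeR). No group of these 4 genes overlapped its control either. Among 30 other androgen-induced genes 7 rose and 7 fell, with the fatty acid desaturase FADS1 at 0.47 ± 0.06 and the protease TMPRSS2 at -0.46 ± 0.05, and 3 of 6 other glucocorticoid-responsive genes rose, led by DUSP1 (0.59 ± 0.09). The calls of FKBP5 (0.30 to 0.31), TSC22D3 (0.27 to 0.28) and ZBTB10 (-0.56 to -0.33) ended without any 1 of the 4 libraries compared, and that of ADAMTS1 ended without DMSO replicate 1 (0.30). In a fit of these 2 groups alone 10 members were called up, as were 10.4% of all genes. Leaving out the first or second library given the inhibitor alone gave 8 members up each, and 8.89% or 8.39% of all genes. Beside these changes 5 of 12 proliferation genes rose, led by MCM3 (0.47 ± 0.06) and TYMS (0.57 ± 0.08), and of the 5 markers of other cell types tested ACTA2 rose (0.96 ± 0.23) and COL1A1 fell (log2 -0.36 ± 0.11). Their part in the result was not tested here either.

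**Figure D3:**
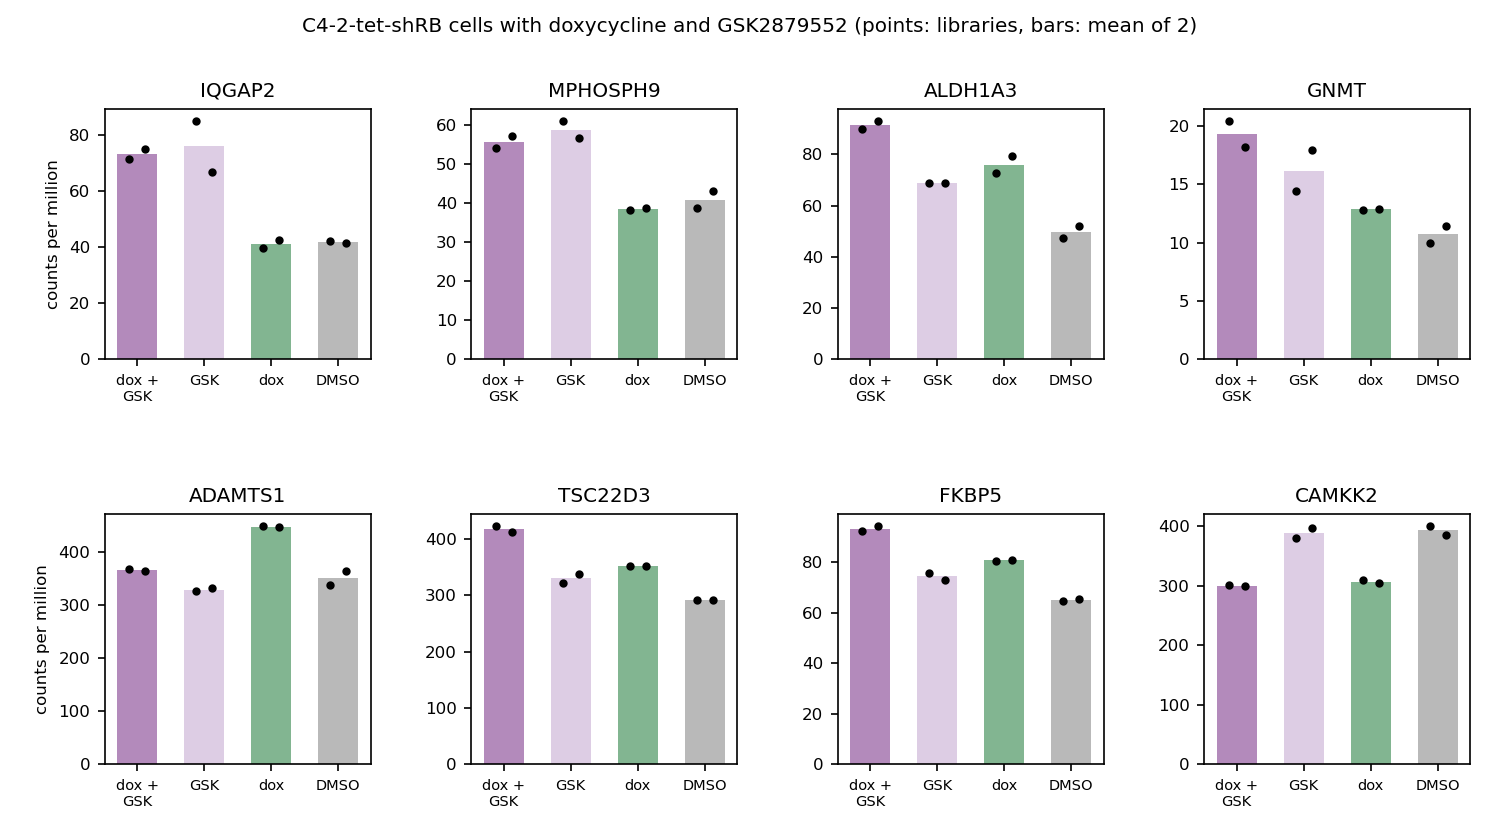
Expression level (CPM) of 8 genes in C4-2-tet-shRB cells given doxycycline and GSK2879552 (GSK), each alone, or DMSO, with points for libraries and bars for the mean of 2. IQGAP2 stood at 67.0 to 85.0 CPM in the 4 libraries with the inhibitor and 39.8 to 42.5 CPM in the 4 without it, while ALDH1A3 was higher with either agent than with DMSO.

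The 2 experiments thus gave different doxycycline effects for some members, and a joint edgeR fit of both tables tested that difference. It called 4 of 37 members higher and 1 lower in the inhibitor experiment, against a background of 1.04% in either direction. ALDH1A3 changed by 0.61 ± 0.08 there and by -0.14 ± 0.08 after 3 days in the DHT experiment, a difference of 0.76 ± 0.13 (adjusted p = 0.000911). ADAMTS1 changed by 0.35 ± 0.06 and -0.20 ± 0.07, a difference of 0.56 ± 0.09 (adjusted p = 0.00104). TSC22D3 changed by 0.28 ± 0.06 and -0.15 ± 0.07, a difference of 0.43 ± 0.09 (adjusted p = 0.0117). STK39 changed by 0.15 ± 0.07 and -0.24 ± 0.06, a difference of 0.40 ± 0.10 (adjusted p = 0.0313). CAMKK2 changed by -0.36 ± 0.06 and 0.06 ± 0.06, a difference of -0.41 ± 0.09 (adjusted p = 0.0158). FKBP5, PMEPA1 and the other 30 members had no call.

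The experiments differ in serum and in library kit (total RNA for the DHT experiment, mRNA for the inhibitor experiment), and these cannot be told apart. DHT was present in some of the libraries behind the DHT experiment's value. In its vehicle pair alone, without DHT, the 3-day doxycycline value was -0.06 for ALDH1A3, -0.17 for ADAMTS1, -0.08 for TSC22D3, -0.23 for STK39 and 0.08 for CAMKK2. Of the 5 calls, that of ADAMTS1 held under every setting. The call of ALDH1A3 ended without the 0-day DHT library (0.60), as did those of CAMKK2 (-0.43), STK39 (0.37) and TSC22D3 (0.40). The call of CAMKK2 also ended without 6 other libraries, STK39 without 7 others and TSC22D3 without 5 others, with values of -0.42 to -0.39, 0.38 to 0.43 and 0.37 to 0.44.

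GSK2879552 without doxycycline raised 3 of 35 members and lowered 0 in C4-2-tet-shRB cells (background 0.619% and 0.0597%). IQGAP2, a scaffold of the actin cytoskeleton, stood at 85.0 and 67.0 CPM with the inhibitor, against 42.1 and 41.6 CPM with DMSO (0.87 ± 0.10, adjusted p = 0.000222 in edgeR). MPHOSPH9 stood at 60.9 and 56.6 CPM, against 38.7 and 43.0 CPM (0.53 ± 0.08, adjusted p = 0.00386 in edgeR). ALDH1A3 stood at 68.7 and 68.8 CPM, against 47.4 and 52.0 CPM (0.47 ± 0.08, adjusted p = 0.00628 in edgeR). All inhibitor libraries of these 3 genes lay above both DMSO libraries. Of 5 markers of other cell types tested, VIM rose (0.60 ± 0.10), as it did when the inhibitor was added to doxycycline (0.74 ± 0.10). FKBP5, at 75.8 and 73.1 CPM against 64.6 and 65.6 CPM, had no call. The calls of MPHOSPH9 (0.45) and ALDH1A3 (0.40) ended without DMSO replicate 1, while that of IQGAP2 held throughout. The libraries given the inhibitor alone differed from each other more than other replicates did, with a chi-square per degree of freedom of 7.88 over all genes, against 1.61 to 3.56 in the other groups, and the calls depended on them. Without the first, 7 members were up and 1 down, against 1.87% and 1.0% of all genes, and without the second 8 were up and 1 down, against 3.93% and 5.02%.

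With doxycycline, GSK2879552 raised 4 of 35 members and lowered 1 (background 1.24% and 0.0923%). IQGAP2 stood at 71.5 and 74.9 CPM with both agents, against 39.8 and 42.5 CPM with doxycycline alone (0.83 ± 0.10, adjusted p = 0.000102 in edgeR). MPHOSPH9 stood at 54.0 and 57.0 CPM, against 38.1 and 38.6 CPM (0.53 ± 0.08, adjusted p = 0.00173 in edgeR). Both rises were close in size to those without doxycycline. GNMT stood at 20.4 and 18.2 CPM, against 12.8 and 12.9 CPM (0.59 ± 0.12, adjusted p = 0.0195 in edgeR). TSC22D3 stood at 422 and 412 CPM, against 352 and 352 CPM (0.24 ± 0.06, adjusted p = 0.0483 in edgeR). ADAMTS1 fell to 368 and 365 CPM, against 449 and 447 CPM (log2 -0.29 ± 0.06, adjusted p = 0.0171 in edgeR). In none of the 5 called genes did the groups overlap, which largely follows from the calls.

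The call of IQGAP2 held throughout, and the other 4 ended without 1 or more single libraries. That of MPHOSPH9 ended without either doxycycline library (0.51 and 0.53) or combination replicate 2 (0.48). Those of TSC22D3 (0.22 to 0.25) and GNMT (0.49 to 0.66) ended without any 1 of the DMSO, doxycycline or combination libraries, and ADAMTS1 (-0.30 to -0.29) without any 1 of the doxycycline or combination libraries. TSC22D3 also lost its call under RLE scaling (adjusted p = 0.0673). In a fit of the 2 groups alone 11 members were called up and 3 down, as were 3.89% and 2.56% of all genes. Without the first or second library given the inhibitor alone 10 members were called up, and 3.25% or 3.05% of all genes. The test of whether the inhibitor's effect differed with doxycycline called 0 of 35 members in edgeR, against 0.0163% of all genes. DESeq2 also called 0 at an adjusted p under 0.05. At an unadjusted p under 0.05 edgeR had 1 member higher and 2 lower, against 2.52% and 2.25% of all genes. For IQGAP2 the difference was -0.04, with a 95% interval of -0.31 to 0.24, and for ALDH1A3 it was -0.20 (-0.42 to 0.01). These intervals come from the SE by the normal approximation. The values allow a difference in either direction for IQGAP2.

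In LNCaP cells, with 1 library per group and no test, 30 members had at least 100 counts in the pair, and 2 of them were past 2-fold up with GSK2879552 and 0 down. The background was 1.54% up and 1.43% down. IQGAP2 stood at 32.6 CPM with the inhibitor and 12.2 CPM with vehicle, a ratio of 2.67 (95% interval 2.23 to 3.20, counting error only). MAF stood at 20.0 CPM and 9.51 CPM, a ratio of 2.10 (1.70 to 2.61). Short of 2-fold, TSC22D3 stood at 76.3 and 39.8 CPM (1.91, 1.72 to 2.13) and ZBTB10 at 70.7 and 44.1 CPM (1.6, 1.45 to 1.78). MPHOSPH9 stood at 39.6 and 29.5 CPM (1.34, 1.18 to 1.53). The lowest ratio was that of SPDEF, at 58.7 CPM with the inhibitor and 95.1 CPM with vehicle (0.617, 0.564 to 0.675). FKBP5 was at 23.5 and 29.9 CPM and KLK3 at 272 and 568 CPM, while NR3C1 was at 9.26 and 2.45 CPM. IQGAP2 and MPHOSPH9 were thus higher with the inhibitor in LNCaP and in C4-2-tet-shRB cells, at doses of 1 and 10 µM and over different times. ALDH1A3, the other member raised by the inhibitor without doxycycline in C4-2-tet-shRB cells, had a ratio of 1.07 (0.916 to 1.24) in LNCaP. TSC22D3 and GNMT were called higher with the inhibitor in C4-2-tet-shRB cells when doxycycline was also given, and had no call without it. Without doxycycline their means were 330 and 16.1 CPM with the inhibitor, against 291 and 10.7 CPM with DMSO. The inhibitor's effect with minus without doxycycline was 0.06 (95% interval -0.1 to 0.23) for TSC22D3 and 0.0 (-0.36 to 0.36) for GNMT. The difference in calls thus does not show a dependence on doxycycline. Their LNCaP ratios were 1.91 (1.72 to 2.13) and 1.2 (0.831 to 1.73). TRPM8, EAF2, INPP4B, HPGD, PTGER4, SGK1 and ST6GALNAC1 had fewer than 100 counts.

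Depletion of RB1 in VCaP cells raised 9 of 36 tested members and lowered 2 (background 2.96% and 2.65%), with a median of 0.06 and no change of 2-fold. DESeq2 called 5 up and 2 down, against 150 up and 145 down among all 14066 genes tested. It did not call HERC3 (adjusted p = 0.249), ELL2 (adjusted p = 0.213), IQGAP2 (adjusted p = 0.124) and CAMKK2 (adjusted p = 0.094). EAF2 was too low to test, at 0.229 to 2.35 CPM. RB1 stood at 5.35, 6.74 and 7.41 CPM with its siRNA, against 56.5, 60.0 and 63.9 CPM with the control siRNA. FKBP5 stood at 74.4, 74.0 and 81.0 CPM, against 62.2, 56.0 and 63.2 CPM (0.34 ± 0.07, adjusted p = 0.000242 in edgeR). MBOAT2 stood at 126, 131 and 134 CPM, against 110, 105 and 105 CPM (0.29 ± 0.05, adjusted p = 3.5e-05 in edgeR). IQGAP2 stood at 56.6, 60.5 and 60.9 CPM, against 48.0, 51.4 and 46.2 CPM (0.29 ± 0.07, adjusted p = 0.00796 in edgeR). ZBTB10 stood at 255, 251 and 280 CPM, against 200, 229 and 218 CPM (0.28 ± 0.04, adjusted p = 6.28e-07 in edgeR). In each of these 4 genes every RB1 siRNA library lay above every control library.

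Smaller rises were those of HERC3 (0.26 ± 0.08), HOMER2 (0.19 ± 0.04), PMEPA1 (0.19 ± 0.03), CAMKK2 (0.16 ± 0.04) and ELL2 (0.16 ± 0.05), and of these only ELL2 had overlapping groups. PMEPA1 stood at 1430, 1440 and 1420 CPM with RB1 siRNA, against 1250 CPM in each control library. HPGD fell to 28.8, 36.2 and 35.1 CPM, against 46.9, 55.3 and 42.6 CPM (log2 -0.54 ± 0.09, adjusted p = 8.98e-06 in edgeR). ACPP fell to 3700, 3780 and 3790 CPM, against 4330, 4260 and 4340 CPM (log2 -0.20 ± 0.03, adjusted p = 1.05e-08 in edgeR). Neither fall had overlapping groups. Beside these changes KLK3 stood at 227, 228 and 228 CPM, against 180, 174 and 172 CPM (0.38 ± 0.04). Of 30 other androgen-induced genes 7 rose and 0 fell, led by B2M (0.60 ± 0.03), and of 10 androgen-repressed genes 4 fell, among them OPRK1 (log2 -0.34 ± 0.05). Of 12 proliferation genes 3 rose and 4 fell, and of 5 markers of other cell types SYP rose (0.20 ± 0.06). Calls that ended without a single library were those of CAMKK2 (0.15, without control replicate 2 or 3), IQGAP2 (0.25, without control replicate 3), HERC3 (0.22 to 0.27, without control replicate 1 or 3 or RB1 siRNA replicate 1) and ELL2 (0.11 to 0.16, without control replicate 1 or RB1 siRNA replicate 2 or 3).

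**Figure D4:**
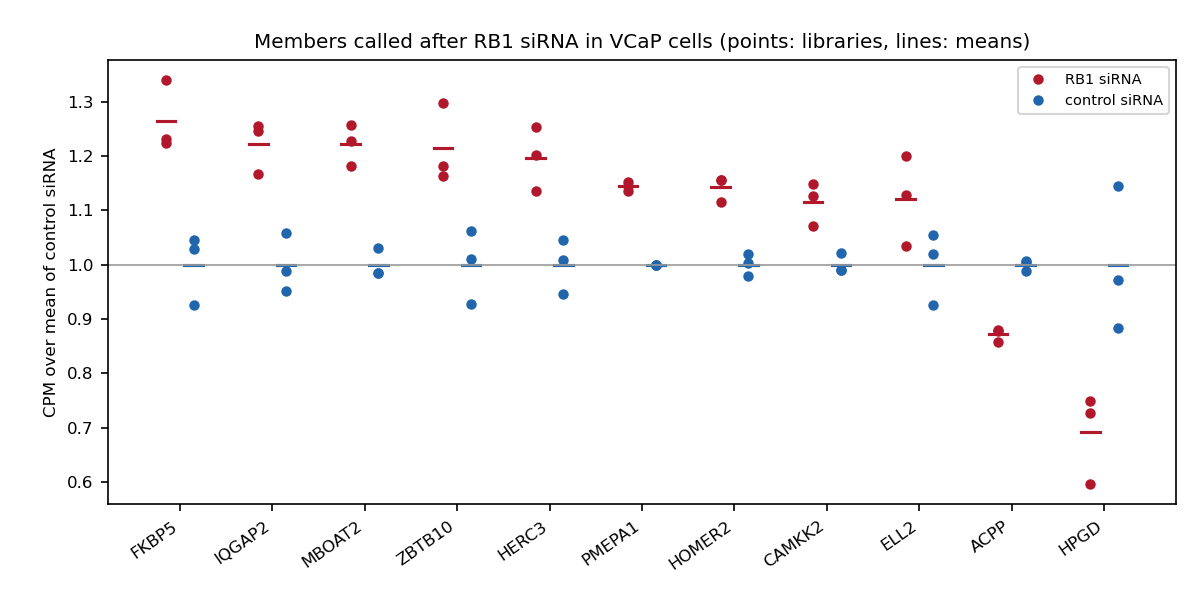
Expression level (CPM) of the 11 members called after RB1 siRNA in VCaP cells, each divided by the mean of the control siRNA libraries, with points for the 3 libraries per group and lines for means (the axis does not start at 0). FKBP5 lies highest and HPGD lowest, and the groups overlap for ELL2 alone.

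Across the 6 tests of doxycycline, inhibitor or siRNA effects within a table, 20 of the 37 genes were called at least once, 17 in none and 11 in at least 2. Of the 34 members tested in all 6, 18 were called at least once and 10 in at least 2, against 18.4% and 3.78% of the 13036 genes tested in all 6. IQGAP2 and CAMKK2 were called in 3 each, IQGAP2 higher in all 3 (in VCaP by edgeR alone). CAMKK2 was higher after RB1 siRNA and after 30 days of doxycycline, both by edgeR alone. It was lower after 3 days of doxycycline in the inhibitor experiment. FKBP5 was higher after RB1 siRNA in VCaP and with doxycycline in the inhibitor experiment, and stood at 0.04 ± 0.07 after 3 days of doxycycline in the DHT experiment. HPGD was higher after 30 days of doxycycline in C4-2-tet-shRB (by edgeR alone) and lower after RB1 siRNA in VCaP. SGK1, with the largest DHT response, was called in none of the 6, and neither were GREB1, ABCC4, CENPN, NCAPD3, SORD, SPDEF or TPD52. The 3 inhibitor comparisons of C4-2-tet-shRB share libraries, as do both doxycycline comparisons of the DHT experiment, so these calls are not independent.

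**Figure D5:**
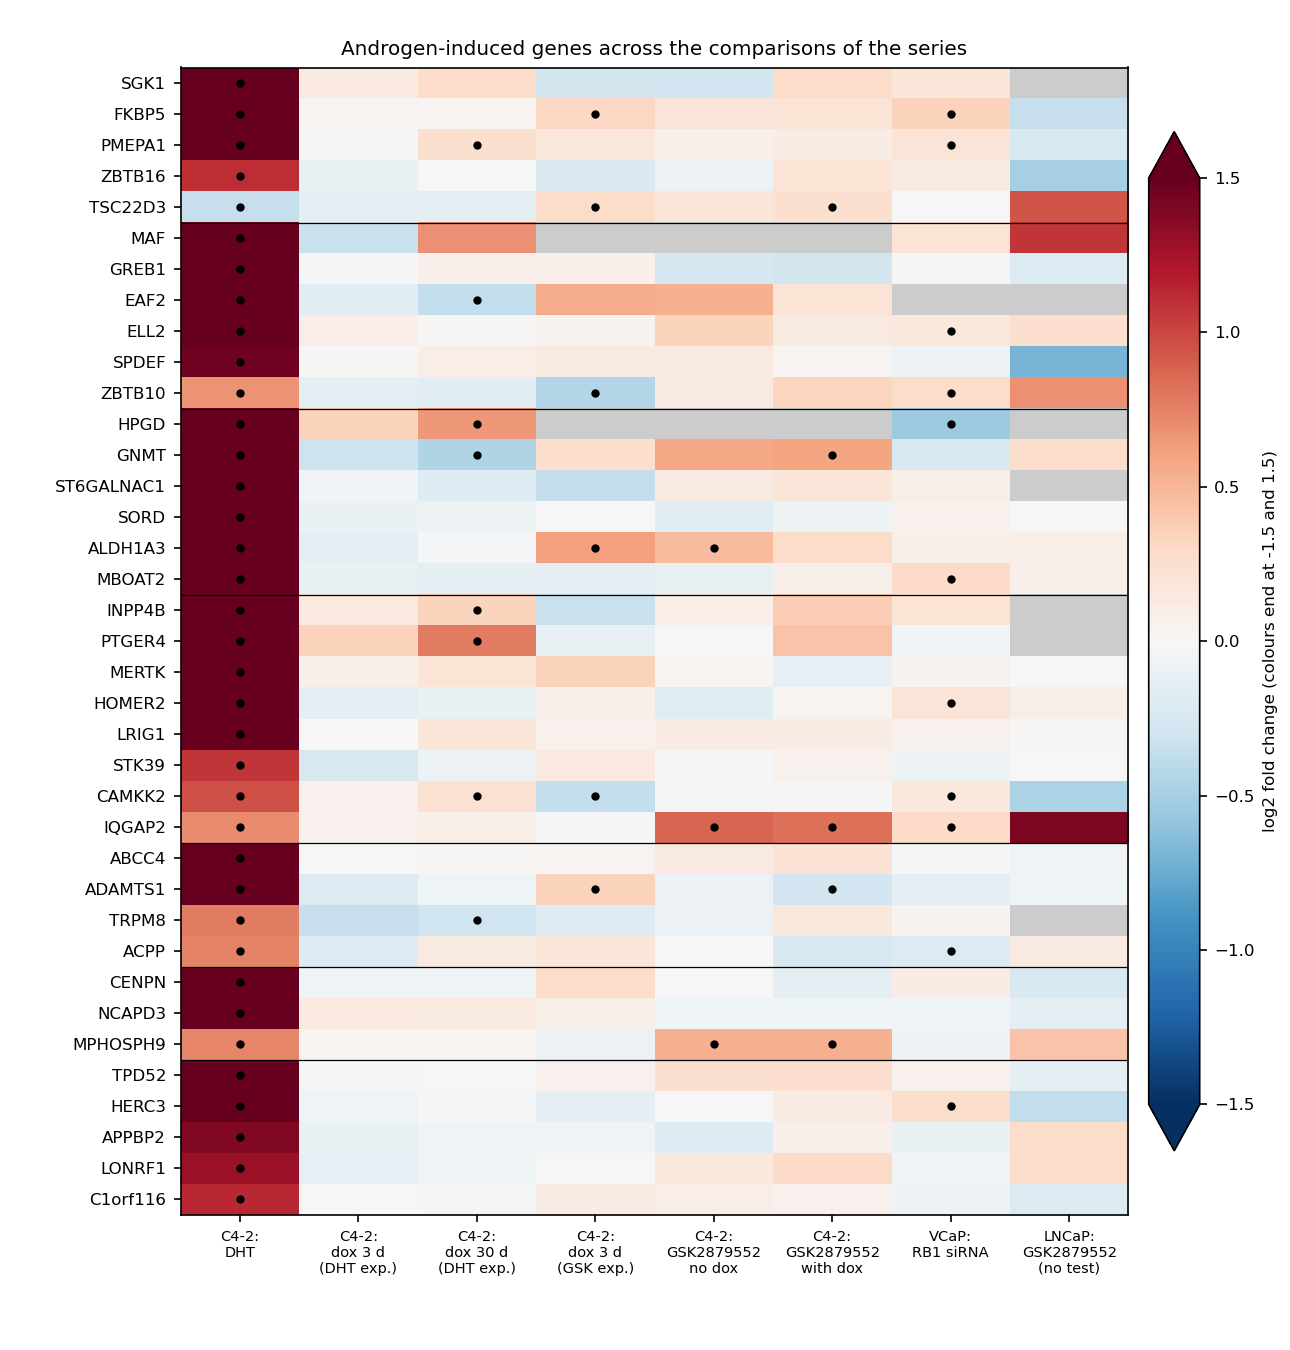
Log2 fold change of each gene (down the side, by functional group as in the plot of the DHT response) in 8 comparisons (columns), with red for higher and blue for lower; colours end at -1.5 and 1.5, grey marks genes not tested or with too few counts, and dots mark calls in edgeR. The DHT column is red for 36 of 37 genes, and dots in the other tested columns number 0 to 11 per column.

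Control libraries of the 4 tables differed in the level of many members, beside differences in cell line, serum and library kit that cannot be told apart. ACPP had a mean of 4310 CPM in VCaP cells with control siRNA, 265 CPM in LNCaP with vehicle, and in C4-2-tet-shRB 144 CPM with DMSO in the inhibitor experiment and 17.8 CPM with vehicle and no doxycycline in the DHT experiment. TRPM8 stood at 562, 2.59, 17.5 and 39.3 CPM in the same 4 groups, and PMEPA1 at 1250, 41.6, 61.1 and 69.2 CPM. TSC22D3 had the reverse order of ACPP between lines, with 14.8 CPM in VCaP, 39.8 CPM in LNCaP and 291 and 228 CPM in the 2 C4-2 groups. INPP4B differed between the 2 C4-2 experiments themselves, at 0.792 CPM in the inhibitor experiment and 14.4 CPM in the DHT experiment. Of the 37 members, 15 were highest in VCaP, 15 in the C4-2 DHT experiment, 5 in the C4-2 inhibitor experiment and 2 in LNCaP.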

How the data were processed

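RNA sequencing reads were aligned to hg19 (GRCh37) and counted per gene with STAR 2.7.2 and featureCounts 1.6.4 after FastQC 0.11.9, per the submitters' processing notes. RNA was isolated with an RNeasy kit, and libraries were made with total RNA kits for the DHT and LNCaP experiments and mRNA kits for the others, per the labels' protocols. The strand setting and annotation release are not given in the sources used here, so reads of overlapping genes cannot be told apart. The values used are the whole-number counts per gene deposited by the authors, 30 columns in 4 tables with 0 left unmapped.

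In the DHT and LNCaP tables, columns of one group carry the same library name and were summed and counted as 1 library. They differed by about the sampling noise alone (chi-square per degree of freedom 0.983 to 1.01, over genes with at least 10 counts). C4-2 inhibitor columns (1.61 to 7.88) and VCaP columns (1.13 to 1.39) carry separate library names and were kept as libraries; VCaP replicates thus differed little beyond counting noise. This gave 22 libraries in 14 groups. Each table was tested on its own, with TMM scaling, edgeR's filter on low counts and its quasi-likelihood F test (edgeR 4.0.16, R 4.3.3) with Benjamini-Hochberg adjustment over all genes tested, at 0.05. The DHT fit held treatment and days of doxycycline as additive terms, and a second fit added the interaction of DHT with any doxycycline. The GSK2879552 fit held all 4 groups, and a joint fit of both C4-2 tables, with terms for each table, tested the difference between doxycycline effects. DESeq2 1.42.0 was an alternative, beside RLE scaling, no filter, fits of the 2 compared groups, a replicate block and leaving out each library. Single-library ratios carry exact binomial 95% intervals over pairs with at least 100 counts (all counts for MAF). The tests were checked on simulated counts. Promoters were RefSeq windows on GRCh38.p14, used for sequence alone.

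Members and gene lists were chosen with earlier results of these data known. Values per library are given for FKBP5, PMEPA1 and TSC22D3 in the DHT experiment and, in each comparison, for up to 4 called members with the largest rise and 4 with the largest fall (mean log2 CPM of at least 1), and past 2-fold in LNCaP; other members appear by role, and of each other list up to 2 genes per direction with the smallest p. RB1, KLK3 and NR3C1 were also followed, and some genes of the lists are not reported here; other genes given with values were chosen after these were seen. STEAP4, among these, is given no fold since its vehicle level was near 0. Replicate numbers of the labels were not used to pair libraries in the main fits, and whether they pair them was not settled.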

Additional observations from a re-analysis of the deposited data

Results flagged for a closer look

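The DHT response of GNMT was smaller with than without doxycycline in C4-2-tet-shRB cells, with a log2 difference of -0.61 in edgeR, which singled it out because the effect of DHT differed between doxycycline conditions.

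The effect of 3 days of doxycycline differed between the inhibitor experiment and the DHT experiment for 5 genes in the joint edgeR fit. The log2 difference, inhibitor experiment minus DHT experiment, was 0.76 for ALDH1A3, 0.56 for ADAMTS1, 0.43 for TSC22D3, 0.40 for STK39 and -0.41 for CAMKK2. Serum and library kit differed between these experiments and cannot be told apart.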

How the results depend on the processing

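The 37 DHT calls kept their direction and their side of the threshold in edgeR under RLE scaling, without a filter on low counts, in DESeq2 and without any 1 library, with a median of 1.61 to 1.71 over the last. No called value of a named member changed sign under the alternatives run. DESeq2 called 0 up and 0 down after 30 days of doxycycline, 0 for the interaction of DHT and doxycycline and 5 up in VCaP. In VCaP it called 150 of all 14066 tested genes up. Without the low-count filter 1 member was called down after 3 days of doxycycline. Fits of the 2 compared groups gave 10 up for doxycycline without GSK2879552, and 11 up and 3 down for GSK2879552 with doxycycline. Same-number correlations of libraries were 0.011 to 0.0292 in VCaP. In the inhibitor experiment they were 0.0866 to 0.135 among the DMSO, doxycycline and combination groups, and -0.325 to -0.198 against the inhibitor alone. With 2 libraries per group, different-number correlations there are the mirror image, so these values do not settle whether the numbers pair libraries. With the numbers as a replicate block, GSK2879552 with doxycycline had 0 down in edgeR. ADAMTS1 (adjusted p = 0.0601) lost its call there, as did TSC22D3 (adjusted p = 0.151).

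Leaving out 1 library gave 0 to 7 down after 3 days of doxycycline, and 1 to 4 up and 0 to 5 down after 30 days. It gave 1 to 8 up and 1 to 3 down for doxycycline without GSK2879552, 1 to 8 up and 0 to 1 down for GSK2879552 alone, and 1 to 10 up and 0 to 3 down for GSK2879552 with doxycycline. The joint fit gave 1 to 8 up and 0 to 1 down. The number of all genes called also changed with the library left out, so these shifts are not particular to the members. The cause of these changes was not tested. The interaction of DHT and doxycycline could not be fitted without a library, for want of residual degrees of freedom. Depth limits MAF and HPGD in C4-2-tet-shRB and EAF2 in VCaP.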
